A study of Drosophila melanogaster with 4 samples.

Results

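The regions described here are the narrow and middle-sized RPD3 clusters along the interior of 3L, the left arm of Drosophila melanogaster chromosome 3. A cluster is a stretch of genome that the authors called enriched for RPD3 in chromatin immunoprecipitation with sequencing (ChIP-seq). The members were taken from the authors' combined list by a rule on position and width: an enriched cluster on 3L whose midpoint lies between 1500001 and 22543557 and whose width is under 6000 bp. Positions are on FlyBase release 5 and 1-based. The rule leaves out 1.5 Mb at the telomere and 2 Mb at the centromere end, and it used no score. It gave 1187 clusters out of 7386 enriched clusters in the whole combined list, or 16.1%, and out of 1419 on the arm, or 83.7%.

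All material was from heads of wild-type flies of the Oregon-R strain, given as mixed adult, from population cages run on a 22-day adult cycle. It is labelled as head nuclei. The labels give neither sex nor treatment. There are 2 RPD3 ChIP samples and 2 input samples, each input tied by the labels to 1 ChIP sample. RPD3 was precipitated with 1 antibody, Q3451, and each ChIP sample has its own cluster list. The labels number the samples as replicates 1 and 2 without saying whether they came from separate cages, so the spread between them may be technical. A head is a mixture of neurons, glia, photoreceptors, muscle and fat body, and cluster lists cannot tell these apart or show whether a site is occupied in many cells or a few.

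RPD3 is the fly counterpart of mammalian HDAC1, an enzyme that removes acetyl groups from histone lysines. It has no known sequence preference of its own and is brought to chromatin as a subunit of larger complexes such as Sin3, CoREST and NuRD. These complexes are classically corepressors, although class I deacetylases are also found at promoters of active genes. In the brain such enzymes have been studied for their part in neuronal gene expression, memory and ageing. The Rpd3 gene itself lies on 3L. The gene table used here is of release 6 and no coordinates were converted, so no cluster was assigned to a gene and no sequence is shown.

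Of the other 3L clusters, 107 lay to the telomere side of the range, 32 to the centromere side and 93 within it were 6000 bp or wider. The 1187 members covered 3.05 Mb, or 14.5% of the 21 Mb range, and the 93 wide clusters another 0.739 Mb, or 3.51%. The widest members were just under the limit, at 5975, 5949, 5947, 5943 and 5939 bp, with scores of 0.92, 0.72, 1.25, 0.95 and 0.81. The narrowest clusters left out by width had 6009, 6013, 6039, 6073 and 6083 bp, with scores of 1.05, 0.52, 1.01, 1.07 and 1.75. The scores inside and outside the limit overlapped, and the highest of these 10 belonged to the cluster left out from 3221570 to 3227652. The score is the authors' value for each cluster and is read here as log2 of ChIP over input. Its scale is inferred and not named in the files, and levels are compared only within a list. At the borders of the range, the last cluster outside on the telomere side ended at 1497972 (score 0.87) and the first inside began at 1500956 (score 0.95). The last inside ended at 22468254 (score 0.35) and the first outside on the centromere side began at 22563638 (score 0.86). The combined list also names 1 region as depleted, from 12734232 to 12735926 on 3L, which no member overlapped and which was left out.

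RPD3 clusters occurred along the whole interior of 3L, at 56.4 members per Mb in the combined list. The same rule applied to each ChIP sample's own list gave 880 clusters (41.8 per Mb) for replicate 1 and 985 (46.8 per Mb) for replicate 2, with a mean density of 44.3 ± 3.53 (SD, n = 2). Members were 1001 to 5975 bp wide, with a median of 2273 bp and quartiles of 1706 and 3201 bp. Scores ran from 0.02 to 2.48 with a median of 0.48 and quartiles of 0.35 and 0.88. In the replicates' own lists the median width on 3L was 2414 ± 18.7 bp (SD, n = 2). Read depth per library is unknown, so nothing can be said here about the number of reads behind a cluster.

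Within the range, the number of members varied 3.62-fold between 500 kb windows. The 42 full windows held 13 to 47 members, with a median of 30, a mean of 28.3 ± 8.51 (SD over windows) and a coefficient of variation of 0.301. The last 43.6 kb, too short for a window, held 0 members. The 3 windows with the most members began at 1500001 (47 members), 3000001 (42) and 20000001 (40). Replicate 1 had 32, 32 and 37 clusters in these windows and replicate 2 had 40, 41 and 30. The first and the second were therefore rich in both samples, and the one at 20000001 ranked first in replicate 1 and 8 in replicate 2. The 3 windows with the fewest members began at 4500001 (13 members), 14000001 (14) and 15000001 (15). Replicate 1 had 9, 11 and 11 clusters there, and replicate 2 had 10, 14 and 12. Both samples thus had at most 14 clusters in each of the poorest windows and at least 30 in each of the richest.

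**Figure D1:**
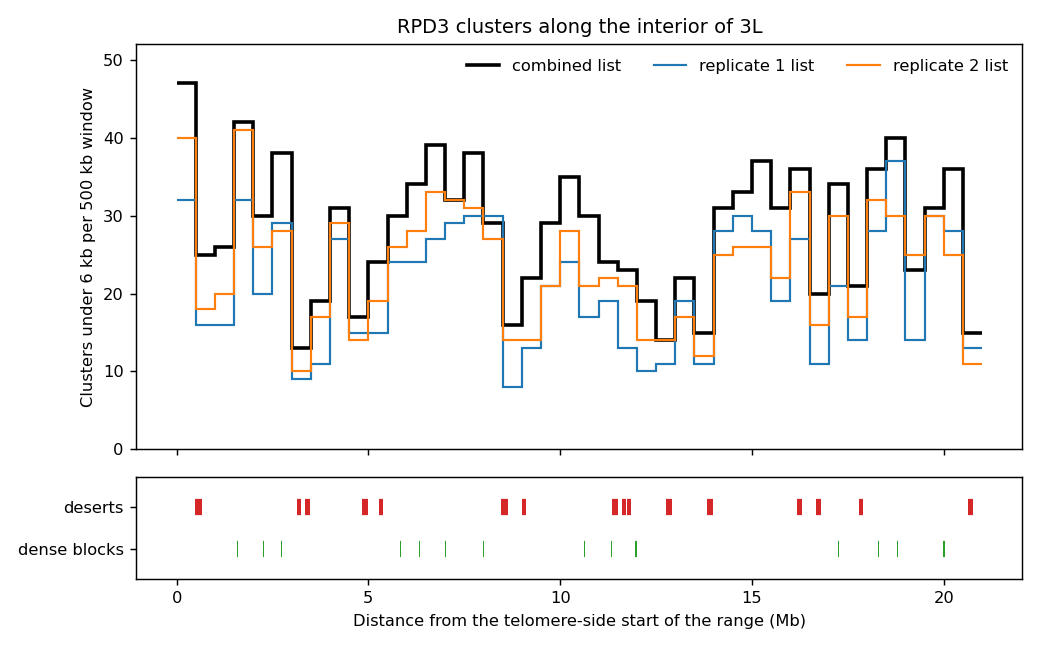
Number of clusters under 6 kb in each 500 kb window along the interior of 3L (y axis) against distance from the telomere-side start of the range in Mb (x axis), for the combined list and each replicate list, with deserts and dense blocks drawn to scale below. The lists broadly move together, though their richest and poorest windows differ, the combined list having 47 members in its richest window and 13 in its poorest.

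The rank order of windows was much the same in both samples. Over the 42 windows, Spearman's rho between the replicate 1 and replicate 2 counts was 0.874 and Pearson's r was 0.873, as a description, since the windows share their libraries. Replicate 2 had more clusters in 30 windows, replicate 1 in 10, and 2 windows were equal. Rich and poor windows did not follow each other along the arm in any simple order: the rho between neighbouring windows was 0.119 over 41 pairs. Wide clusters, which the rule leaves out, were more numerous where members were (rho 0.669 between both counts), and 6 windows held members and no wide cluster. Divided into 3 equal stretches of 7.01 Mb, the arm had 59.6 members per Mb on the telomere side, 49.6 in the middle and 60 on the centromere side. The middle stretch was the poorest in each sample, with 36.4 clusters per Mb in replicate 1 and 41.2 in replicate 2. The telomere-side stretch had 42.8 in replicate 1 and 50 in replicate 2, and the centromere-side one 46.3 and 49.2. Which of the outer stretches was the richer thus differed between samples.

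Members were strongly uneven in their spacing. A gap is counted here as the bases between the end of a member and the start of the next. The 1186 gaps had a median of 6739 bp and a mean of 15106 bp, with a coefficient of variation of 1.48. Of these gaps 200, or 16.9% (95% exact Clopper-Pearson interval 14.8 to 19.1), were under 1 kb, and 502, or 42.3%, were under 5 kb. At the other end 78 gaps were 50 kb or longer, and they took up 29.9% of the range. In the replicates' own lists the median gap was 8526 ± 394 bp and the coefficient of variation 1.5 ± 0.054 (SD, n = 2 each). Some member gaps are not free of RPD3, since 86 of the 1186 held a wide cluster. Intervals over clusters in this account cover counting error alone, and clusters are not independent replicates.

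The other large arms, treated by the same rule, had shorter median gaps than 3L in each list. In the combined list the median gap was 6739 bp on 3L, against 6016 bp on X, 6469 bp on 2L, 5139 bp on 2R and 6469 bp on 3R. In the replicates' own lists 3L had a median gap of 8804 bp in replicate 1 and 8248 bp in replicate 2, against 8760 bp and 8058 bp on 2L, the arm next to it in both samples. Member density on 3L was 0.964 ± 0.00877 times that of the other 4 arm interiors together (SD, n = 2), at 0.958 in replicate 1 and 0.97 in replicate 2. Against single arms, 3L had 44.3 ± 3.53 clusters per Mb, and the others had 43.5 ± 1.08 on X, 42.3 ± 3.12 on 2L, 53.9 ± 3.85 on 2R and 45 ± 4.58 on 3R (SD, n = 2 each). Within samples, 3L minus 2L was 1.74 per Mb in replicate 1 and 2.32 in replicate 2, and 3L minus 2R was -9.41 and -9.86. The differences from X (-0.935 and 2.52) and from 3R (0.0644 and -1.42) changed sign between the samples. All arms were measured in the same 2 samples, and an exact sign-flip permutation test over 2 samples cannot give a p below 0.5, so the differences between arms are descriptions.

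**Figure D2:**
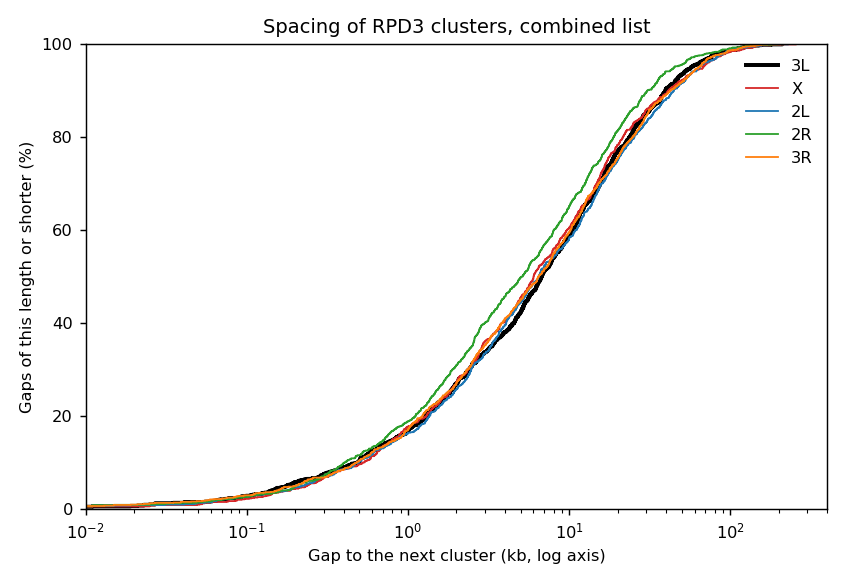
Share of gaps of a given length or shorter, in percent (y axis), against gap length in kb on a log axis (x axis), for members of the combined list on 3L and for clusters chosen by the same rule on X, 2L, 2R and 3R. The 3L curve runs with those of X, 2L and 3R, and the 2R curve lies above them, with a median of 5139 bp against 6739 bp on 3L.

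The interior of 3L held long stretches without any RPD3 cluster. A desert is counted here as a gap of at least 100 kb that holds no enriched cluster of any width in the combined list. There were 16, from 101 to 179 kb long, adding up to 2.07 Mb or 9.82% of the range. In 15 of the 16, neither replicate's list held a cluster inside, which the choice of places largely fixes, since the combined list draws on the same samples. The exception, from 19289037 to 19404699, held 1 replicate 1 cluster with a score of 0.50 and no replicate 2 cluster. The middle stretch of the arm held 7 deserts, the telomere-side one 5 and the centromere-side one 4.

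The longest desert ran from 1971103 to 2149923 (179 kb). It starts within the window richest in members. The gap at this place was 195 kb in replicate 1 and 179 kb in replicate 2. The next ran from 9969201 to 10131345 (162 kb), where the gaps were 209 kb in replicate 1 and 208 kb in replicate 2. It begins at the end of a wide cluster of 8935 bp with a score of 1.04. The third ran from 15330935 to 15486761 (156 kb), with gaps of 160 kb in replicate 1 and 156 kb in replicate 2. The fourth ran from 12849003 to 12998695 (150 kb), with gaps of 149 kb in replicate 1 and 150 kb in replicate 2. It starts directly at the end of a dense block described further on. The fifth ran from 4839931 to 4975111 (135 kb), with gaps of 148 kb in each sample. All 5 were thus long gaps in each sample, which again follows largely from how they were chosen.

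Clusters at desert edges were not uniformly weak. Of the 32 edge clusters, 6 had a score of 1 or more, and the median edge score was 0.67. The strongest was the member from 22126548 to 22131078 (score 2.22), which is followed by a desert of 124 kb.

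The replicates' own lists held more deserts than the combined list, 31 in replicate 1 and 25 in replicate 2, and 23 of each overlapped one in the other sample. That is 74.2% of the replicate 1 deserts and 92% of the replicate 2 deserts. One place where the samples disagreed was a stretch from 13508630 to 13837566 (329 kb), the longest gap of replicate 1. Replicate 2 had 4 clusters inside it, all low, with scores of 0.50, 0.37, 0.47 and 0.42. The combined list had 7 clusters there. In this list 6 of them scored between 0.25 and 0.45, and the other was a 1001 bp cluster with a score of 2.48 that neither sample's own list holds.

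Dense blocks were the opposite case. A dense block is counted here as a run of at least 6 members with each gap to the next under 5 kb. There were 14 blocks with 99 members, or 8.34% of all members, on 403 kb or 1.91% of the range. They were 14.6 to 48.8 kb long. By the same definition replicate 1 had 13 blocks of its own and replicate 2 had 5, and 2 of each overlapped one in the other sample, or 15.4% of the replicate 1 blocks and 40% of the replicate 2 blocks. Blocks are far shorter than deserts, so these shares are not set against those of deserts. Of the replicates' blocks, 4 from replicate 1 and 2 from replicate 2 overlapped one of the combined list.

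The block with the most members ran from 21485670 to 21534508 (48.8 kb) and held 10, of which 7 were found in both samples. Its scores ranged from 0.28 to 1.22, with 3 of 1 or more and 5 under 0.5, and members took up 55% of its length. Replicate 1 had 10 clusters there and replicate 2 had 7. Next came 4 blocks of 8 members. The one from 4218638 to 4243320 (24.7 kb) was the weakest of them, with scores of 0.29 to 0.87 and 2 of 8 members found in both samples. Replicate 2 had 2 clusters there, covering 15.9% of the block, and replicate 1 had 4, covering 46.2%. The one from 7315592 to 7344060 (28.5 kb) reached a score of 1.49, and 6 of its 8 members were found in both. The ones from 12816590 to 12849002 and from 13462642 to 13497256 reached 1.51 and 1.47, each with 4 of 8 members found in both. Thus 4 of these 5 blocks held at least 1 member scoring 1 or more beside members under 0.5, and the block at 4218638 held none scoring 1 or more.

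In 10 of the 14 at least 1 member scored 1 or more, and in 2, from 7820524 to 7835106 and from 18745606 to 18766076, every member was under 0.5. Each sample had fewer clusters than members in many blocks: replicate 1 in 10 of 14 and replicate 2 in 14 of 14. The blocks were chosen as dense in the combined list, which largely fixes this. Over the whole range the samples also had fewer, 880 in replicate 1 and 985 in replicate 2 against 1187 members. Members in blocks had a median score of 0.43 and 53.5% of them (95% exact interval 43.2 to 63.6) were found in both samples, against 0.48 and 57.8% (54.8 to 60.8) for members outside blocks. These shares have overlapping intervals.

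In the combined list, crowding and score showed little relation. Members with another cluster under 1 kb away had a median score of 0.46 (n = 402), those with one 1 to 5 kb away 0.53 (n = 417), those with one 5 to 20 kb away 0.45 (n = 284) and the isolated ones, 20 kb or more from any cluster, 0.47 (n = 84). The isolated clusters were the lowest group in each sample's own list, with medians of 0.62 in replicate 1 and 0.67 in replicate 2, where the medians of the other groups were between 0.70 and 0.76 for replicate 1 and between 0.77 and 0.86 for replicate 2. Neighbouring members had unrelated scores in the combined list (rho 0.019 over 1186 pairs, and 0.032 over the 502 pairs under 5 kb apart). Window by window, the number of members and their median score had a rho of 0.015 over the 42 windows.

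Median scores by window ranged from 0.37 to 0.70. The highest were in the windows that began at 3000001 (0.70), 6500001 (0.69) and 1500001 (0.63). The window at 3000001 was second of 42 by median score in replicate 1 (0.94) and 12 in replicate 2 (0.87). The one at 6500001 had 0.73 in replicate 1 and 0.88 in replicate 2, and the one at 1500001 had 0.88 and 0.77. The lowest were in the windows at 18000001 (0.37), 10000001 (0.39) and 11500001 (0.39). The window at 18000001 ranked 38 and 41 of 42 by median score in replicates 1 and 2, and the one at 10000001 ranked 42 and 38. The one at 11500001 ranked 19 and 9 and so was not low in either sample's own list. Unlike the counts, the window medians of the samples were weakly related, with a rho of 0.144 and Pearson's r of 0.101 over 42 windows. Median width per window ran from 2015 to 2769 bp and went with the median score (rho 0.62).

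**Figure D3:**
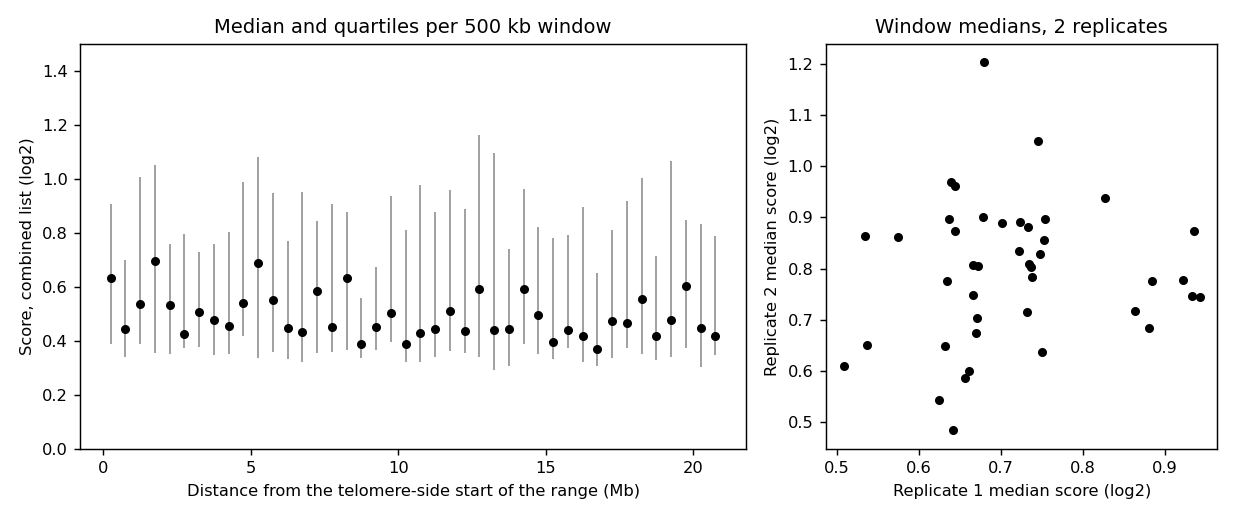
Left, median score with quartiles of members in each 500 kb window (y axis, log2, combined list) against distance from the telomere-side start of the range in Mb. Right, median score per window in replicate 2 (y axis) against replicate 1 (x axis). Window medians lie between 0.37 and 0.70 with wide quartiles, and those of the samples have a rho of 0.144.

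Most members were matched by clusters in the separate samples. With an overlap of at least 1 bp, 682 of the 1187 members, or 57.5% (95% exact interval 54.6 to 60.3), met a cluster in both replicate lists. In the whole combined list this share was 61%, which includes wide clusters and the other sequences. A further 123 members (10.4%) met replicate 1 alone, 186 (15.7%) met replicate 2 alone and 196 (16.5%) met neither. On the other arm interiors, the share found in both was 57% on X, 58.5% on 2L, 59% on 2R and 60% on 3R. The 3L interval contains all 4 of these values.

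Members found in both samples had higher scores and greater widths in the combined list, which draws on the same samples and so is not independent of the match. Their median score was 0.81 and their median width 2981 bp. Members in neither had a median score of 0.36 and a median width of 1187 bp. By score, the share found in both was 11.3% in the lowest of 5 equal groups of members (scores 0.02 to 0.33), 18.5% in the next, 61.6% in the middle group (0.41 to 0.64), 97% in the next and 99.2% in the highest (0.96 to 2.48). By width, 0 of the 227 members under 1500 bp were found in both (95% exact interval 0 to 1.61%). From 1500 to 2000 bp the share was 15.3%, from 2000 to 3000 bp 77.3%, from 3000 to 4000 bp 93.1% and from 4000 bp 98.9%. The narrowest cluster in either replicate list was 1301 bp wide, whereas the combined list goes down to 1001 bp. Of the 162 members narrower than 1301 bp, 131 were in neither list and 0 in both.

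Width and score were related in opposite ways on the 2 sides of 2000 bp. Among the 430 members under 2000 bp, narrower ones had higher scores (rho -0.454), and among the 757 of 2000 bp or wider, wider ones had higher scores (rho 0.54). The median score was 0.37 from 1000 to 1200 bp, 0.33 from 1200 to 1400 bp, 0.28 from 1400 to 1600 bp, 0.28 from 1600 to 1800 bp, 0.31 from 1800 to 2000 bp, 0.43 from 2000 to 2200 bp and 0.59 from 2200 to 2400 bp. In the replicates' own lists for 3L, the relation under 2000 bp was near 0 (rho -0.043 in replicate 1 and 0.062 in replicate 2), and the one above it was similar to the combined list (0.495 and 0.568). These lists hold no cluster narrower than 1301 bp, so under 2000 bp their rho covers a shorter range of widths. In the bin from 1200 to 1400 bp their medians were 0.47 in replicate 1 (n = 43) and 0.44 in replicate 2 (n = 30). In the 3 bins from 1400 to 2000 bp they were 0.43, 0.44 and 0.45 in replicate 1 and 0.43, 0.40 and 0.43 in replicate 2. The same pair of slopes was found on the other arm interiors of the combined list, where rho ran from -0.498 to -0.421 under 2000 bp and from 0.457 to 0.494 above. The lowest median was thus from 1600 to 1800 bp, and the bound of 2000 bp was chosen after the values were seen.

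**Figure D4:**
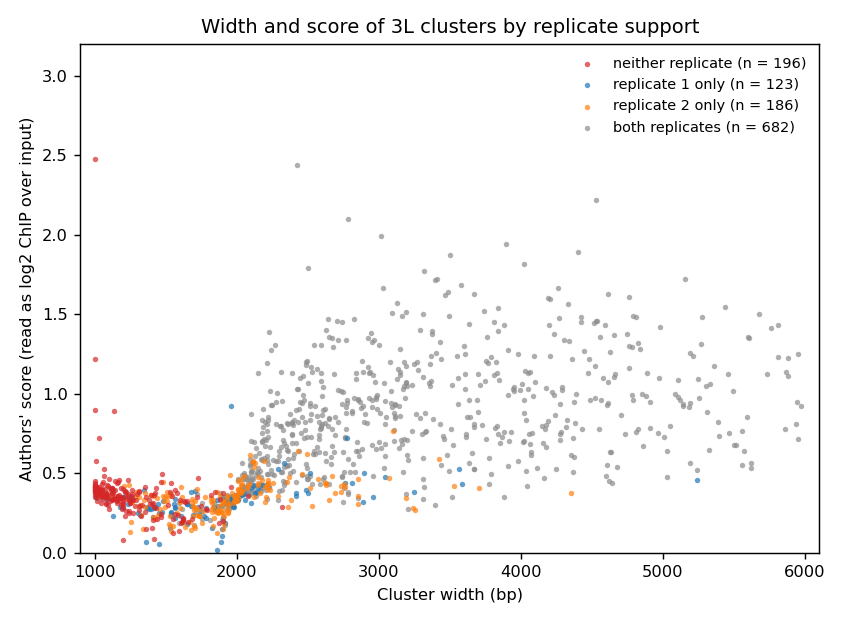
Score of each of the 1187 members (y axis, read as log2 ChIP over input) against its width in bp (x axis), coloured by which replicate lists hold an overlapping cluster. Members found in both lie mostly above 2000 bp, and members found in neither lie mostly under 1500 bp, among them the highest score of the members, 2.48.

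The highest score among the 1187 members had no counterpart in either sample's list. The member from 13525040 to 13526040, 1001 bp wide, scored 2.48, and the nearest clusters of the separate samples were 16410 bp away in replicate 1 and 17146 bp away in replicate 2. The next among members in neither list was from 16516964 to 16517964, also 1001 bp, with a score of 1.22 and with the nearest clusters 27509 and 17418 bp away. These were the 2 members of the highest of these groups that neither sample held. The others of the 5 highest in neither list were from 3027416 to 3028418 (0.90), from 3040194 to 3041332 (0.89) and from 6987976 to 6989008 (0.72), and all were under 1200 bp wide. The one at 3040194 lay 69 bp from a replicate 1 cluster and 210 bp from a replicate 2 cluster.

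Most of the 10 highest-scoring members found in both samples also ranked high in each sample's own list. The combined list draws on the same samples, so their ranks there are a description. The first lay from 14666132 to 14668556 (2425 bp, combined score 2.44). It was the highest cluster of all 3L in both samples, with scores of 2.21 in replicate 1 and 2.57 in replicate 2. The second lay from 22126548 to 22131078 (4531 bp, 2.22), with a score of 1.80 and rank 8 on 3L in replicate 1 and a score of 2.51 and rank 2 in replicate 2. The nearest other cluster was 54937 bp away. It was the most isolated of the 10.

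The third lay from 2465476 to 2468256 (2.10), with 1.90 in replicate 1 and 2.25 in replicate 2. The fourth lay from 18079408 to 18082422 (1.99), with 1.91 in replicate 1 and 2.16 in replicate 2. It stands in the window with the lowest median score, and it is the highest member there. The fifth lay from 6734286 to 6738182 (1.94) and differed most in extent and rank between the samples. In replicate 1 its counterpart was 7636 bp wide with a score of 1.25 and rank 117 on 3L, and in replicate 2 it was 3811 bp wide with 2.23 and rank 5. The sixth lay from 3068920 to 3073318 (1.89), at the telomere-side end of a dense block of 7 members, with 1.97 in replicate 1 and 2.02 in replicate 2.

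The seventh lay from 20095676 to 20099174 (1.88) and also ranked apart, with 1.33 and rank 80 in replicate 1 and 2.30 and rank 3 in replicate 2. The eighth lay from 12258176 to 12262194 (1.82), with 1.54 and rank 31 in replicate 1 and 2.14 and rank 7 in replicate 2. The ninth lay from 15546174 to 15548678 (1.79), with ranks 18 and 19 in replicates 1 and 2. The tenth lay from 14182082 to 14185402 (1.77), with ranks 9 and 25. Of the 10, then, 8 were within the first 31 of 3L in replicate 1 and all within the first 25 in replicate 2.

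Some weak members recurred too. The 5 lowest scores found in both samples were 0.17 (from 5623226 to 5625146), 0.17 (3090016 to 3091716), 0.19 (17604542 to 17606134), 0.20 (6896230 to 6898040) and 0.21 (20810998 to 20812894). All were 1593 to 1921 bp wide. Each had a counterpart at rank 937 or beyond in replicate 1 and at rank 1046 or beyond in replicate 2.

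Each of the 682 members found in both samples was paired with the cluster of each sample that overlapped it most. Members were left out if another such member had the same cluster or if the paired clusters did not touch. A member could meet further clusters: of the 682, 26 met 2 or more in replicate 1 and 23 in replicate 2. Over the 658 members kept, scores ranked alike. Spearman's rho was 0.66 and Pearson's r 0.675 between replicate 1 and replicate 2 scores, and rho was 0.545 for widths. These are descriptions across clusters. The 66 highest-scoring of them by each sample had 28 in common (42.4%). Cluster ends in the combined list lay closer to those of replicate 2 than to those of replicate 1. Starts differed by a median of 155 bp in replicate 1 and 75.5 bp in replicate 2, and both ends lay within 500 bp for 439 of 682 members (64.4%) in replicate 1 and 535 of 682 (78.4%) in replicate 2. The clusters of the separate samples shared a median of 80.6% of their joint extent. For 31 of these members the replicate 1 cluster was 6000 bp or wider, against 1 for replicate 2.

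**Figure D5:**
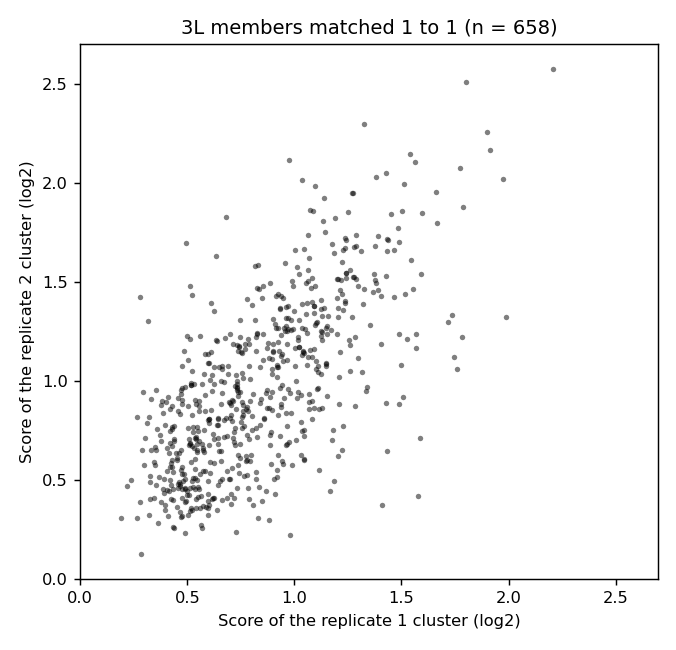
Score of the replicate 2 cluster that overlaps a member most (y axis, log2) against that of the replicate 1 cluster (x axis, log2). The 658 members shown share neither cluster, as best match, with another member found in both samples. The points rise together with a rho of 0.66 and a wide scatter, and the point farthest to the upper right is the member that ranked first in both samples, at 2.21 and 2.57.

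From the side of the samples, most clusters under 6 kb in the range were carried into the combined list. Of the 880 replicate 1 clusters 839 (95.3%) overlapped the combined list, and of the 985 replicate 2 clusters 975 (99%) did. Some of these met a wide combined cluster and no member: 69 in replicate 1 and 96 in replicate 2. The 41 replicate 1 clusters without a counterpart were weak and narrow, with a median score of 0.50 and a highest of 0.68, and the 10 of replicate 2 had a median of 0.47 and a highest of 0.62. Between the samples, 735 of the 880 replicate 1 clusters (83.5%, 95% exact interval 80.9 to 85.9) met a replicate 2 cluster, and 792 of the 985 replicate 2 clusters (80.4%, 77.8 to 82.8) met a replicate 1 cluster.

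Scores on 3L were close to those on the other autosomal arms. Its median in the combined list was 0.48, against 0.61 on X, 0.52 on 2L, 0.50 on 2R and 0.52 on 3R. In replicate 1 it was 0.72, against 0.87 on X, 0.71 on 2L, 0.71 on 2R and 0.73 on 3R. In replicate 2 it was 0.80, against 0.92 on X, 0.80 on 2L, 0.82 on 2R and 0.83 on 3R. The 3L median was therefore the lowest of the 5 in the combined list and not in either sample. Deserts numbered 7.6 per 10 Mb on 3L, against 8.46 on X, 7.18 on 2L, 5.67 on 2R and 7.38 on 3R in the combined list. In replicate 1 they numbered 14.7 on 3L, against 15.3 on X, 13.3 on 2L, 10.8 on 2R and 13.9 on 3R. In replicate 2 they numbered 11.9 on 3L, against 13.7 on X, 11.3 on 2L, 9.07 on 2R and 13.5 on 3R. Dense blocks numbered 6.65 per 10 Mb on 3L, against 8.46 on X, 7.18 on 2L, 13.6 on 2R and 6.15 on 3R in the combined list. The samples did not keep this order of block density. In replicate 1 blocks numbered 6.18 on 3L, against 5.81 on X, 5.64 on 2L, 6.23 on 2R and 5.33 on 3R. In replicate 2 they were fewest on 3L, at 2.38, against 3.7 on X, 4.1 on 2L, 5.1 on 2R and 4.51 on 3R. The coefficient of variation of window counts in the combined list was 0.301 on 3L, against 0.328 on X, 0.306 on 2L, 0.26 on 2R and 0.296 on 3R. In replicate 1 it was highest on 3L, at 0.377, against 0.351 on X, 0.356 on 2L, 0.271 on 2R and 0.357 on 3R. In replicate 2 it was 0.327 on 3L, against 0.367 on X, 0.312 on 2L, 0.268 on 2R and 0.306 on 3R.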

How the data were processed

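RPD3 ChIP-seq of fly head nuclei was deposited as lists of enriched clusters, 1 per ChIP sample and 1 combined list. The submitters' processing notes name Bowtie 0.12.7 for this series. Which caller made the clusters, with what threshold, and how the lists were combined are details not given in the sources used here. Depth is unknown, and no input values were used. Coordinates are of FlyBase release 5, per the file headers. The deposited score of each cluster was read as log2 enrichment of ChIP over input. This was inferred from the highest scores, whose powers of 2 are whole multiples of 1 step, at 13, 12, 11, 10 and 9 steps. Whether such scores rest on few reads was not tested.

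The members and all definitions were chosen with earlier results of these data known. Named were the 10 highest-scoring members found in both samples, the 5 lowest of these, the 5 highest in neither, the 5 on each side of the width limit, the 3 extreme windows each way, and the 5 longest deserts and largest blocks. Other places named were chosen after their values were seen. The other large arms were treated by the same rule. Clusters matched at an overlap of 1 bp or more. Alternatives changed the list, score, width, joining, overlap, window, gap and range. No test was run, since an exact sign-flip permutation test over 2 samples cannot give a p below 0.5. Arms were compared within each sample. Functions were tested on simulated data. Planned gene context was not run, because the gene table is of release 6. The work used Python 3.11.15, numpy 2.4.6, scipy 1.17.1 and matplotlib 3.10.9.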

Additional observations from a re-analysis of the deposited data

How the results depend on the processing

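Of 49 alternatives for 10 results, 10 moved a value by less than the spread (1.5 times for counts) and 39 by more. The spread was the SD of the replicate lists, or the exact interval for the share found in both. Some labels were fixed in advance. For the rho of window counts no spread was allowed, so each alternative counted as moved. Leaving out either of 2 samples always shifts their mean by less than their SD. The cause was not tested beyond the construction of the alternatives. Members per Mb (56.4) were 24.1 in the better-scoring 50%, 47.2 with clusters under 500 bp apart joined, 32.4 for members in both samples, 60.8 with all widths, 41.8 in the replicate 1 list and 46.8 in the replicate 2 list. The density of 3L over the other arms ran from 0.958 to 0.97 with either replicate left out, and was 0.983 in the combined list, 0.888 in the better-scoring 50%, 0.939 on whole arms and 0.954 by covered bp. The share found in both samples (57.5%) was 97.6% in the better-scoring 50%, 60.5% with all widths and 66.5% without members narrower than 1301 bp. Median width (2273 bp) was 2981 bp for members in both, 3201 bp in the better-scoring 50%, 2401 bp in replicate 1 and 2427 bp in replicate 2, and the median score was 0.81 for members in both. The median gap (6739 bp) was 13533 bp for members in both, 5473 bp with all widths, 9868 bp after joining, 8804 bp in replicate 1 and 8248 bp in replicate 2. Deserts numbered 34 when only clusters in both counted, 31 in replicate 1, 25 in replicate 2 and 32 at 75 kb. Dense blocks depended most on the definition: 3 with gaps under 2.5 kb, 45 under 10 kb, 2 for members in both and 5 in replicate 2. The coefficient of variation over windows was 0.412 at 250 kb, 0.234 at 1 Mb, 0.345 for members in both and 0.377 in replicate 1. The rho of window counts was 0.864 at 250 kb, 0.888 at 1 Mb, 0.874 with windows moved by 250 kb and 0.734 in the better-scoring 50%. No paired analysis was possible because the input samples, which share the replicate numbers of the ChIP samples, have no cluster lists. Arms were instead compared within each sample. Planned gene context was not run. The lists hold no reads, so limits set by depth are unknown.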

Other observations

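All 1187 members of the combined list had an even start and an even end, against 225 of the 880 replicate 1 clusters and 227 of the 985 replicate 2 clusters chosen by the same rule. The combined list therefore lies on a 2 bp grid that the separate lists do not share. The 15 members of exactly 1001 bp are at the narrowest width found in the range, and 76 members were under 1100 bp, of which 65 were found in neither sample and 0 in both, with a median score of 0.38.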
